A study of Mus musculus with 11 samples.

Results

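Transforming growth factor beta (TGF-beta) genes were followed through the deposited count table of Col1a1-GFP sorted mouse spinal cord cells. The set was chosen by symbol and held 10 of the 37991 genes in the table: the ligands Tgfb1, Tgfb2 and Tgfb3, the receptors Tgfbr1, Tgfbr2 and Tgfbr3, the intracellular mediators Smad3 and Smad7, and the latent TGF-beta binding proteins Ltbp1 and Ltbp2. Each symbol had a single row, and all 10 genes passed the filter on low counts in every comparison.

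The RNA came from C57BL/6 mice carrying the Col1a1GFP reporter, in which cells that use collagen I regulatory sequence fluoresce green, and GFP+ cells were collected by fluorescence-activated sorting from cords dissociated with chemical and mechanical steps. The groups were sorted cells from healthy mice (sorted control, replicates 1, 3 and 4), sorted cells taken 5 days after the start of symptoms of experimental autoimmune encephalomyelitis (EAE, an induced inflammatory disease of the central nervous system; replicates 1, 2 and 3), and sorted cells taken 10 days after the start of symptoms (replicates 1, 2 and 3). Between 2 and 3 cords were pooled for a sorted library, and the series' design calls these libraries biological replicates. Whole spinal cord homogenate from healthy C57BL/6 mice, with no reporter and 1 cord a library, gave the fourth group (replicates 1 and 3). The labels of the whole cord samples repeat the sorting protocol, so that they are homogenate rests on the series' design. Oligodendrocyte markers summed to 14700 to 16400 CPM in these libraries and to 60.5 to 158 in the sorted ones. The labels give no age or sex, and the reporter marks any cell with active Col1a1 sequence, not a single cell type.

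TGF-beta ligands are secreted as latent complexes, in which a propeptide cages the growth factor and a latent TGF-beta binding protein ties the complex to matrix fibres. Integrins and proteases release the ligand, which then joins the type II receptor (Tgfbr2) and the type I receptor (Tgfbr1), often presented by the co-receptor betaglycan (Tgfbr3). The active type I receptor phosphorylates SMAD2 and SMAD3, which enter the nucleus with SMAD4, while SMAD7 is an inhibitor that the pathway itself induces. In fibroblasts the pathway is best known for raising collagen and other matrix genes.

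The 250 bases before the start of 4 members are printed because these genes differ in what they did: Tgfb1, Tgfbr2 and Ltbp2 passed the test at both times after onset, and Tgfb2 passed it in neither. The sequences are those of RefSeq on GRCm38.p6, from which 9 such promoters were taken for 7 of the 10 members. Smad7 was left out of this step by choice. None was found for Tgfb3 or Tgfbr3, and Tgfbr3 also passed the test at both times, as lower. Ltbp1, which like Tgfb2 passed in neither, had 2 windows that are not printed, with 1 and 2 CAGA boxes and 0 GC boxes. The day 10 calls of Tgfb1 and Ltbp2 were lost under several alternatives, given below. Capitals mark 2 motifs searched on both strands, CAGAC or GTCTG (the CAGA box, the core letters that SMAD3 and SMAD4 are known to bind) and GGGCGG or CCGCCC (the GC box).
Tgfb1, chr7:25686752-25687001, plus strand: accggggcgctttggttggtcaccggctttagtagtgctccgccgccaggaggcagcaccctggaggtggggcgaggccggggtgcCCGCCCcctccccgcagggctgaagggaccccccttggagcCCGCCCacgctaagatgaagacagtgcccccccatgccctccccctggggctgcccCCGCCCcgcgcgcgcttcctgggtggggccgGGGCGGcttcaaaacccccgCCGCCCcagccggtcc
Tgfb2, chr1:186705990-186706239, minus strand: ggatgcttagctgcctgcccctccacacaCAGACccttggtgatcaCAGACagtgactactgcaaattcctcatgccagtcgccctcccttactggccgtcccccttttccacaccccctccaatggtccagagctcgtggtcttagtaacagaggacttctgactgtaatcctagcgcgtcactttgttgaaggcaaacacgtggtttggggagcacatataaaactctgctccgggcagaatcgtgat
Tgfbr2, chr9:116175364-116175613, minus strand: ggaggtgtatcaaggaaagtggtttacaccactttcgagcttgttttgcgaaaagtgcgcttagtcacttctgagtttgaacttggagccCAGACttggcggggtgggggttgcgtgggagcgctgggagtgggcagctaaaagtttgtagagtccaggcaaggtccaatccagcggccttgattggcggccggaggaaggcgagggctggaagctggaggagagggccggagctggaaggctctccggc
Ltbp2, chr12:84876492-84876741, minus strand: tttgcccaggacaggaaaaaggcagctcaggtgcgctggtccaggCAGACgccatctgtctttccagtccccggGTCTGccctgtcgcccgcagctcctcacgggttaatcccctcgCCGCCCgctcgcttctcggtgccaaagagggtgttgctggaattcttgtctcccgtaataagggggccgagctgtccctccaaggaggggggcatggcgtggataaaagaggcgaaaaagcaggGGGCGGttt
The Tgfb1 window held 5 GC boxes and no CAGA box, and 75.2% of its bases were G or C. The Tgfb2 window held 2 CAGA boxes and no GC box, and the Tgfbr2 window held 1 CAGA box and no GC box. The Ltbp2 window held both motifs, 2 of each. Over all 32851 promoters cut in the same way, 42.2% held a CAGA box and 32.7% a GC box. These matches describe letters in a short window and do not mark bound sites.

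The libraries held 7123291 to 12238751 counts in genes. Collagen I transcripts marked the sorted cells: the summed level of 6 fibroblast markers, in CPM (counts scaled to a common library total), was 18900 to 23100 in sorted control, 25900 to 34400 at day 5, 24300 to 48100 at day 10 and 145 to 240 in whole cord. At day 5, 3 of the 6 rose (Col1a1, Col1a2 and Pdgfrb) and 3 fell (Dcn, Lum and Pdgfra), with a median log2 change of 0.06. Summed levels of 9 pan-leukocyte and T cell markers were 8.95 to 26.8 in sorted control, 161 to 328 at day 5 and 90.2 to 147 at day 10, and 8 of the 9 rose at both times. Of 8 endothelial markers 3 rose at both times (267 to 303, then 564 to 674 and 437 to 493). The 8 mural markers summed to 2210 to 3960, 1660 to 3310 and 725 to 1420, and they moved apart at day 5, when 2 rose (Abcc9 and Des) and 1 fell (Myh11), while at day 10 none rose and 4 fell. Astrocyte markers summed to 654 to 702, 1010 to 1060 and 937 to 980, with 3 of 6 higher and 1 lower at both times. Microglia and macrophage markers rose in 3 of 9 cases at day 5 and 4 of 9 at day 10 (76.9 to 100, then 91.1 to 116 and 103 to 181). All 6 cycling markers rose at both times (25.7 to 64.5, then 330 to 356 and 105 to 237). The part of these other transcripts in the member results was not tested. The 10 immediate-early genes listed, which dissociation can induce, summed to 11300 to 20700 in sorted control, 5940 to 11300 at day 5 and 6040 to 18400 at day 10, with 6040 in replicate 3. Along principal component 1 of the sorted libraries (48.8% of variance) that replicate stood at 53.8, in the day 5 range of 51.9 to 59.2, while the other day 10 libraries stood at 12 and 3.4 and the controls at -81.6 to -78. Member results that rest on day 10 replicate 3 are given with and without it. For single genes of the lists below this was done only for the at most 3 with the largest called change in a comparison.

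**Figure D1:**
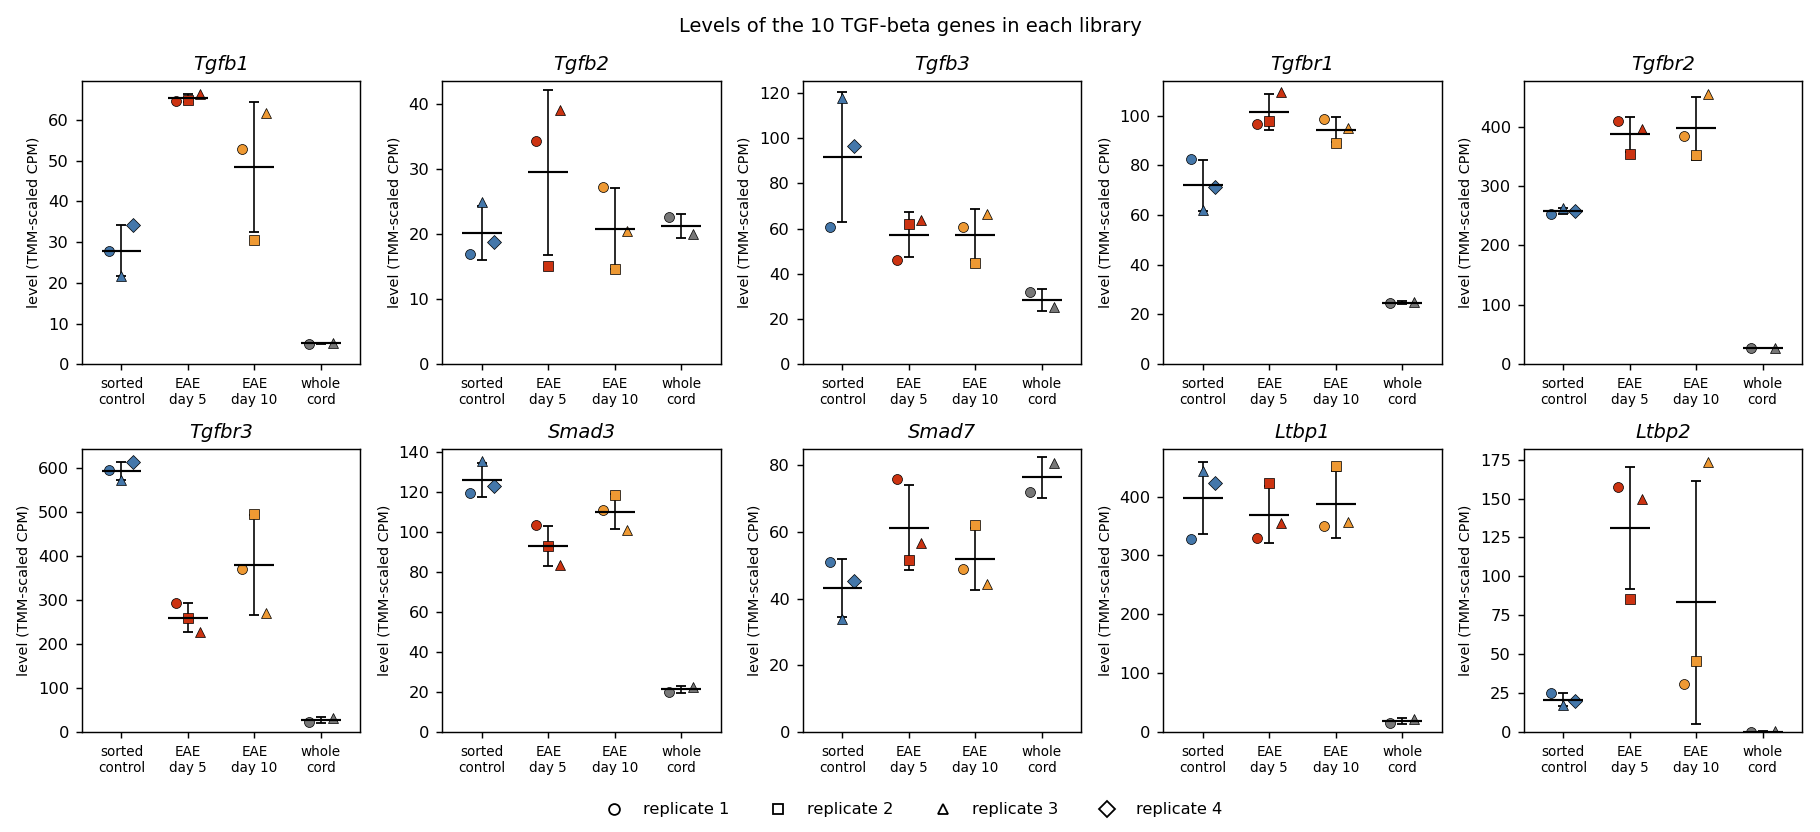
Level of each of the 10 genes in each library, in CPM scaled by trimmed mean of M values (TMM), with symbols for replicates, horizontal bars for group means and vertical bars for 1 SD. Whole cord libraries were scaled in a separate fit with the controls, and the axis of each panel starts at 0. Tgfb1 and Ltbp2 are higher in every day 5 library than in any sorted control library, Tgfbr3 is lower, and Ltbp2 is near 0 in whole cord.

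Per kilobase of annotated exon, which allows levels of different genes to be set side by side, betaglycan (Tgfbr3) led in healthy sorted cells with 90.9 ± 3.06 CPM per kilobase (SD, n = 3). Ltbp1 at 37.2 ± 5.68, Tgfbr2 at 31.5 ± 0.588, Tgfb3 at 27.1 ± 8.52 and Smad3 at 22.8 ± 1.55 CPM per kilobase followed, and each overlapped its neighbour in that order within 1 SD. Tgfbr1 (11 ± 1.57) and Smad7 (9.59 ± 1.92 CPM per kilobase) also overlapped each other. The lowest were Tgfb1 at 5.52 ± 1.24, Tgfb2 at 3.49 ± 0.714 and Ltbp2 at 2.54 ± 0.51 CPM per kilobase, the latter pair overlapping. At day 5 the order was led by Tgfbr2 with 47.3 ± 3.55 and Tgfbr3 with 39.8 ± 4.97 CPM per kilobase, which overlapped, and Ltbp2 stood at 16 ± 4.8, beside Tgfb3 at 16.9 ± 2.91 and Smad3 at 16.8 ± 1.81. In whole cord Smad7 led with 16.9 ± 1.35 CPM per kilobase (n = 2), followed by Tgfb3 with 8.41 ± 1.4, and Ltbp2 was last with 0.0358 ± 0.0294.

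At day 5 after onset, 4 members were higher than in sorted control (Tgfb1, Tgfbr1, Tgfbr2 and Ltbp2), 2 were lower (Tgfbr3 and Smad3) and 4 did not pass the test, a quasi-likelihood F test in edgeR with p adjusted over all 15972 genes tested and a threshold of 0.05. Of all genes tested 23.9% passed, 13.2% as higher and 10.7% as lower. The median log2 change was 0.50 over the members and 0.00 over all genes, and the median size of the change was 0.57 and 0.48. The groups did not overlap for 7 of the 10 members, and for 41.9% of all genes. With a library left out, 4 to 7 members passed. In bulk libraries a change in the number of cells of a type and a change in RNA per cell cannot be told apart. The same control libraries serve both times after onset.

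At day 10, 3 members were higher than in sorted control (Tgfb1, Tgfbr2 and Ltbp2), Tgfbr3 was lower and 6 did not pass. Of all genes 13.4% passed, 8.38% as higher and 4.99% as lower. The median log2 change was 0.15 over the members and 0.01 over all genes, and the groups did not overlap for 5 of the 10 members and for 31.1% of all genes. The count of members that passed was 4, and it fell to 1 without sorted control replicate 3 or without day 10 replicate 3. It was 2 without sorted control replicate 1 or 4 or day 10 replicate 1, and 2 with limma voom or with only the 2 groups compared in the fit. Without sorted control replicate 1 the 2 were Tgfbr2 and Tgfb3, and Tgfb3 was not among the 4. The Tgfbr2 call at day 10 was the 1 that held under all 14 alternatives.

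**Figure D2:**
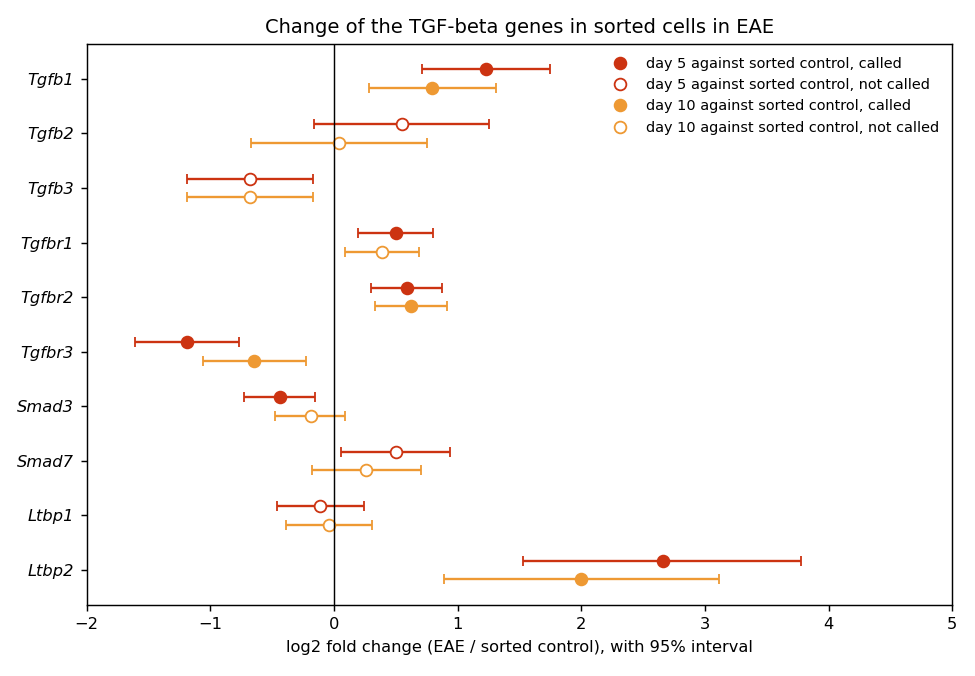
Log2 fold change of each gene in EAE against sorted control at day 5 (red) and day 10 (orange), with 95% intervals from the fit of 9 sorted libraries (n = 3 a group). Filled points passed the test, open points did not. Ltbp2 shows the highest values, 2.66 and 2.00, and Tgfbr3 the lowest, -1.19 and -0.65.

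Among the ligands, Tgfb1 (ENSMUSG00000002603), the isoform best known from immune cells and fibrosis, rose in the sorted cells in EAE. Its level was 27.7, 21.7 and 34.2 TMM-scaled CPM in sorted control replicates 1, 3 and 4, and 64.7, 64.9 and 66.5 in day 5 replicates 1, 2 and 3. The day 10 replicates 1, 2 and 3 read 52.9, 30.6 and 61.6. The day 5 libraries lay close together and far above every control, while day 10 replicate 2 lay inside the control range. The fold was 2.34 at day 5 (log2 change 1.23 ± 0.24 SE, adjusted p = 0.00302, edgeR), and it stayed called under all 14 alternatives, with adjusted p from 1.07e-05 to 0.0138. The day 10 fold was 1.73 (log2 change 0.79 ± 0.24, adjusted p = 0.0446, from 0.00547 to 0.2 over the alternatives). That call was lost with library totals only (0.0605), limma voom (0.0737), only the 2 groups in the fit (0.106), and without sorted control replicate 1 (0.105), control replicate 3 (0.132), day 10 replicate 1 (0.126) or day 10 replicate 3 (0.2). Leukocyte markers moved in the same direction: Ptprc, the pan-leukocyte phosphatase CD45, was 3.29 ± 2.88 CPM in sorted control, 56.2 ± 20.2 at day 5 and 29.0 ± 7.29 at day 10 (SD, n = 3). The part of these transcripts in the Tgfb1 result was not tested.

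Tgfb3 (ENSMUSG00000021253), an isoform made by many mesenchymal cells, was the most abundant ligand per kilobase in healthy sorted cells and had lower means in EAE, without passing the test. Its levels were 60.6, 118 and 96.5 CPM in the 3 sorted controls, 46.0, 62.2 and 63.8 at day 5, and 60.8, 44.7 and 66.4 at day 10. Control replicate 1 lay among the EAE libraries, and the other controls lay above all of them. The log2 change was -0.68 at day 5 (95% interval -1.19 to -0.17, adjusted p = 0.0542, edgeR) and -0.68 at day 10 (adjusted p = 0.0753). Over the alternatives the adjusted p ran from 0.0112 to 0.188 at day 5 and from 0.0193 to 0.236 at day 10. Without control replicate 1 the change was -0.91 at day 5 (adjusted p = 0.0112) and -0.90 at day 10 (0.0198), both called. It was also called with DESeq2 (0.0295 and 0.039) and with no filter on low counts (0.0133 and 0.0193), and at day 5 with only the 2 groups in the fit (0.0482).

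Tgfb2 (ENSMUSG00000039239), the third isoform, showed no change that passed the test. It stood at 17, 24.9 and 18.8 CPM in sorted control, 34.3, 15.2 and 39.1 at day 5, and 27.2, 14.7 and 20.6 at day 10. Day 5 replicate 2 was below every control and the other day 5 libraries were above them. The log2 change at day 5 was 0.55 ± 0.32 (95% interval -0.16 to 1.25, adjusted p = 0.249, edgeR), and without day 5 replicate 2 it was 0.87 and passed (0.043, the lowest of a range up to 0.618). The day 10 change was 0.04 ± 0.33 (adjusted p = 0.958).

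The make-up of the ligand transcripts was taken from counts per kilobase within each library. Tgfb3 made up 74.1% ± 6.08 of the 3 ligands in sorted control, 48.3% ± 6.13 at day 5 and 56.7% ± 3.34 at day 10 (SD, n = 3). Tgfb1 made up 16.1% ± 5.61, 37.2% ± 2.92 and 31.3% ± 3.35, and its highest control share, 20.8%, lay below its lowest share in EAE, 27.8%. Tgfb2 made up 9.82% ± 1.38, 14.5% ± 5.86 and 12% ± 2.09. At day 5 the order of Tgfb1 and Tgfb3 depends on the division by exon length (5.04 and 3.38 kilobases in the annotation used here). Without it, Tgfb1 made up 44.6%, 45.6% and 39.2% of ligand counts in day 5 replicates 1, 2 and 3. Tgfb3 then made up 31.7%, 43.7% and 37.7%.

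Of the receptors, betaglycan fell and the 2 signalling receptors were higher at day 5. Tgfbr3 (ENSMUSG00000029287), the co-receptor that binds all 3 ligands and presents Tgfb2 in particular, was at 596, 574 and 614 CPM in sorted control and at 293, 260 and 228 at day 5. In day 10 replicates 1, 2 and 3 it was at 372, 497 and 270. Every EAE library lay below every control, and day 10 replicate 3 lay in the day 5 range. The level was 2.28-fold lower at day 5 (log2 change -1.19 ± 0.19, adjusted p = 0.00103, edgeR), called under all 14 alternatives with adjusted p up to 0.00779. At day 10 it was 1.57-fold lower (-0.65 ± 0.19, adjusted p = 0.0424, from 0.00645 to 0.118). The day 10 call was lost with only the 2 groups in the fit (0.0652) and without control replicate 1 (0.0913), 3 (0.0725) or 4 (0.112), day 10 replicate 1 (0.0984) or day 10 replicate 3 (-0.46, 0.118).

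Tgfbr2 (ENSMUSG00000032440), the type II kinase that binds the ligand first, rose at both times. The sorted controls read 253, 263 and 258 CPM. The day 5 libraries read 410, 354 and 397, and the day 10 libraries 385, 352 and 455. The EAE libraries all lay above the controls, which differed little from each other. The fold was 1.5 at day 5 (log2 change 0.59 ± 0.13, adjusted p = 0.00741, edgeR) and 1.54 at day 10 (0.62 ± 0.13, adjusted p = 0.00952). Both calls held under all 14 alternatives, with adjusted p up to 0.0341 and 0.0403.

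Tgfbr1 (ENSMUSG00000007613), the type I kinase that phosphorylates the SMADs, read 82.4, 61.9 and 71.4 CPM in sorted control, 96.8, 97.8 and 110 at day 5, and 98.7, 88.8 and 95.2 at day 10. Every EAE library lay above every control. The log2 change was 0.50 ± 0.14 at day 5 (1.41-fold, adjusted p = 0.0221, edgeR) and 0.39 ± 0.14 at day 10 (adjusted p = 0.0855, not called). The day 5 call was lost with replicate numbers as a block (0.0728), without control replicate 3 (0.0805) or 4 (0.0693) and without day 5 replicate 3 (0.0995), in a range from 0.0104 to 0.0995. At day 10 no alternative brought it past the threshold (0.0564 to 0.234).

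Of the mediators, Smad3 was lower at day 5 and Smad7 did not pass the test. Smad3 (ENSMUSG00000032402), the transcription factor that carries the signal to DNA, stood at 120, 136 and 123 CPM in sorted control, 104, 92.9 and 83.4 at day 5, and 111, 119 and 101 at day 10. All EAE libraries lay below all controls, by a small step at day 10. It was 1.35-fold lower at day 5 (log2 change -0.44 ± 0.13, adjusted p = 0.0322, edgeR), and at day 10 the change was -0.19 ± 0.13 (adjusted p = 0.382). The day 5 call was lost with no filter on low counts (0.0764), with replicate numbers as a block (0.081), and without control replicate 3 (0.0816) or 4 (0.0639) or day 5 replicate 2 (0.0934) or 3 (-0.35, 0.153), in a range from 0.0134 to 0.153.

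Smad7 (ENSMUSG00000025880), the inhibitory SMAD, had a day 5 mean above that of control, with no call at either time. Its levels were 51.0, 33.9 and 45.2 CPM in sorted control, 75.8, 51.6 and 56.6 at day 5, and 48.9, 62.2 and 44.5 at day 10. The lowest day 5 library lay just above the highest control, and the day 10 libraries overlapped the controls. The log2 change was 0.50 ± 0.20 at day 5 (95% interval 0.06 to 0.94, adjusted p = 0.0916, edgeR, from 0.0588 to 0.353 over the alternatives) and 0.26 ± 0.20 at day 10 (adjusted p = 0.445).

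The latent binding proteins went separate ways. Ltbp2 (ENSMUSG00000002020), a microfibril protein that is known, unlike Ltbp1, for not binding latent TGF-beta, read 25.4, 17.2 and 19.9 CPM in sorted control and 157, 85.8 and 150 at day 5. In day 10 replicates 1, 2 and 3 it read 31.0, 45.8 and 173. The day 5 libraries lay far above the controls. At day 10 replicates 1 and 2 lay just above them, and replicate 3 was as high as any day 5 library. The fold was 6.30 at day 5 (log2 change 2.66 ± 0.52, adjusted p = 0.00315, edgeR, at most 0.0191 over 14 alternatives, all called). At day 10 it was 4.01 (2.00 ± 0.51, adjusted p = 0.0221, from 3.4e-06 to 0.08). Without day 10 replicate 3 the log2 change was 0.88 and no longer called (0.08). The day 10 call was also lost with limma voom (0.0792), with replicate numbers as a block (0.0582), and without control replicate 1 (0.0505), 3 (0.0706) or 4 (0.0772). An annotated gene on the opposite strand, D030025P21Rik, shares 9.3% of the Ltbp2 exon bases and had 14 counts over all 11 libraries, and whether the counting used strand is not given in the sources used here.

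Ltbp1 (ENSMUSG00000001870), which tethers latent TGF-beta to fibrillin and fibronectin fibres, showed no change that passed the test. It read 329, 443 and 422 CPM in sorted control, 330, 423 and 356 at day 5, and 351, 453 and 358 at day 10, with the 3 groups overlapping over nearly their whole ranges. The log2 change was -0.11 ± 0.16 at day 5 (95% interval -0.46 to 0.24, adjusted p = 0.68, edgeR) and -0.04 ± 0.16 at day 10 (adjusted p = 0.905).

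Between day 10 and day 5 none of the 10 members passed the test, and 0.131% of all genes did (12 higher, 0.0751%, and 9 lower, 0.0563%, or 10 and 12 with library totals only). One member, Tgfbr3, had an unadjusted p under 0.05, as did 1353 of the 15972 genes tested, and DESeq2 and limma voom also called 0 members. The log2 change of Tgfbr3 from day 5 to day 10 was 0.54 ± 0.19 (unadjusted p = 0.0144 and adjusted p = 0.449 in edgeR's fit), that of Tgfb1 was -0.44 ± 0.23 (0.661), and that of Ltbp2 was -0.65 ± 0.48 (0.781). Tgfb1 alone had groups that did not overlap, as did 14.1% of all genes. Without day 10 replicate 3, 2 members passed: Tgfbr3 was higher at day 10 by 0.75 (adjusted p = 0.0437) and Ltbp2 was lower, with -1.76 (0.0163). The count of all genes called then rose from 21 to 218, and it was 1 without day 5 replicate 3. A call at day 5 and none at day 10 therefore does not by itself show that the times differ.

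Ratios between pairs of members within a library need no scaling between libraries, and 7 were computed. The ratio of Tgfb1 to Tgfb3 counts was 0.457, 0.184 and 0.354 in sorted control, 1.41, 1.04 and 1.04 at day 5, and 0.87, 0.685 and 0.927 at day 10. The ratio of Tgfbr2 to Tgfbr3 was 0.425, 0.457 and 0.419 in sorted control, 1.40, 1.36 and 1.74 at day 5, and 1.03, 0.708 and 1.69 at day 10. In both ratios every EAE library lay above every control. The Tgfbr1 to Tgfbr3 ratio behaved in the same way (0.121 ± 0.0158 in sorted control, 0.396 ± 0.077 at day 5 and 0.265 ± 0.0869 at day 10, SD, n = 3), whereas the ratio of Tgfbr1 to Tgfbr2 was 0.28 ± 0.0451, 0.263 ± 0.0231 and 0.239 ± 0.0263, with overlapping groups. The Smad7 to Smad3 ratio was 0.347 ± 0.09, 0.655 ± 0.0911 and 0.468 ± 0.0494, and its lowest EAE value, 0.439 at day 10, lay above its highest control value, 0.426. The Ltbp2 to Ltbp1 ratio was 0.0771, 0.0387 and 0.0471 in sorted control, 0.477, 0.203 and 0.421 at day 5, and 0.0885, 0.101 and 0.484 at day 10. The Tgfb1 to Tgfb2 ratio overlapped between sorted control (1.44 ± 0.502) and day 5 (2.62 ± 1.44) and stood at 2.34 ± 0.572 at day 10. With 3 libraries against 3, an exact permutation test (two-sided) cannot give a p below 0.1, so these ratios are given as a description.

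**Figure D3:**
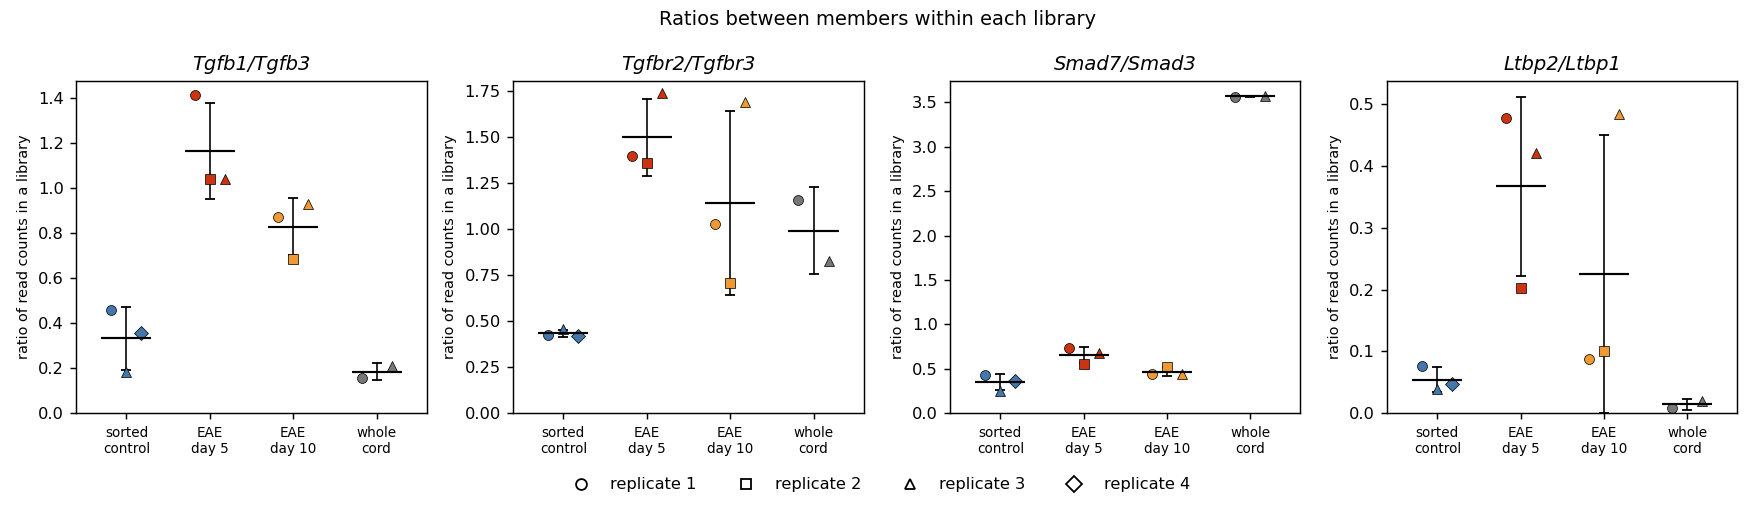
Ratio of read counts of 4 pairs of members within each library, by group, with symbols for replicates, horizontal bars for means and vertical bars for 1 SD, on linear axes that start at 0. The Tgfbr2 to Tgfbr3 ratio is 0.419 to 0.457 in the sorted controls and 0.708 to 1.74 in the EAE libraries, and the Smad7 to Smad3 ratio is 3.56 and 3.57 in whole cord.

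The comparison of healthy sorted cells with whole cord asks which members are concentrated in Col1a1-GFP cells. Of the 10 members 8 were higher in the sorted cells, Smad7 was lower and Tgfb2 did not pass the test. Of the 16562 genes tested 55.6% passed, 26.9% as higher and 28.7% as lower. The median log2 difference was 2.40 over the members and 0.04 over all genes, and the groups did not overlap for 9 members and for 74.3% of all genes. All 9 calls held under all 12 alternatives. Library totals in place of TMM scaling moved the median of all genes to 0.32 and turned the direction of Tgfb2. Sorting, dissociation and pooling differ between these groups along with cell type, and immediate-early genes summed to 144 to 155 CPM in whole cord against 11300 to 20700, so the preparation and the cells cannot be told apart. With 2 whole cord libraries the spread of that group rests on a single pair.

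Ltbp2 stood furthest from whole cord, where it had 1 and 5 counts against 581 over the 3 controls. Per count of library total the ratio was 73.9, with a 95% interval from counting error alone of 33.7 to 202. The fitted log2 difference was 5.91 ± 0.51 (adjusted p = 5.19e-05, edgeR) and ranged from 5.33 to 7.14, the latter without whole cord replicate 3. Tgfbr3 read 561, 534 and 581 CPM in the controls on the scale of this fit and 22.8 and 32.1 in whole cord, 20.3-fold apart (log2 difference 4.34 ± 0.20, adjusted p = 3.41e-06). Ltbp1 read 310, 412 and 400 against 15.2 and 22.5 CPM, 19.7-fold apart (4.30 ± 0.24, adjusted p = 7.61e-06). These 3 genes, the co-receptor and both binding proteins, had the widest gaps of the set.

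The signalling receptors and Smad3 were also higher in the sorted cells. Tgfbr2 was at 242 ± 3.45 CPM (SD, n = 3) against 26.5 and 26.5 in the whole cord libraries, 9.13-fold apart (log2 difference 3.19 ± 0.13, adjusted p = 2.44e-06, edgeR). Tgfbr1 was at 67.6 ± 10.0 against 24.4 and 25.1 CPM (2.73-fold, 1.45 ± 0.18, adjusted p = 0.000352). Smad3 was at 119 ± 7.19 against 20.3 and 22.6 CPM (5.52-fold, 2.47 ± 0.15, adjusted p = 1.01e-05). The groups of each were far apart.

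The ligands differed among themselves. Tgfb1 was at 26.2 ± 6.08 CPM in the sorted cells against 5.03 and 5.28 in whole cord (5.07-fold, log2 difference 2.34 ± 0.29, adjusted p = 0.000357, edgeR), and Tgfb3 at 85.9 ± 26.6 against 31.8 and 25.1 (3.03-fold, 1.60 ± 0.29, adjusted p = 0.00248). Tgfb2 was at 19 ± 3.73 CPM in sorted cells and 22.6 and 20.01 in whole cord, with a log2 difference of -0.16 ± 0.23 (adjusted p = 0.578) that became 0.11 with library totals only. Smad7 went the other way, with 48.0, 31.5 and 42.8 CPM in the controls and 72.1 and 80.7 in whole cord, 1.88-fold lower in the sorted cells (-0.91 ± 0.20, adjusted p = 0.00581). Within libraries the Smad7 to Smad3 ratio was 3.56 and 3.57 in whole cord and at most 0.733 in any sorted library.

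**Figure D4:**
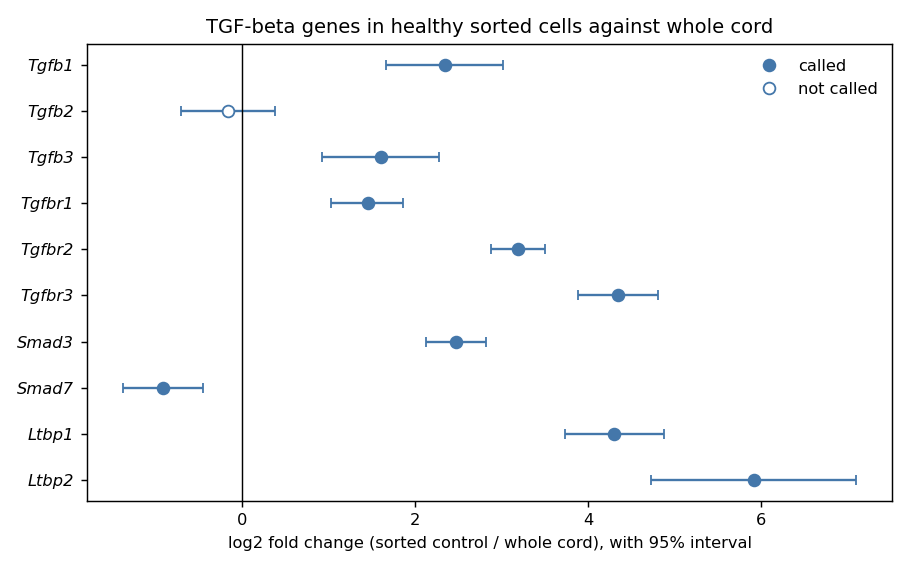
Log2 difference of each gene between healthy sorted cells (n = 3) and whole cord (n = 2), with 95% intervals from the fit of those 5 libraries, filled where the test was passed. Of the 10 genes, 8 lie to the right of 0 with log2 differences from 1.45 to 5.91, Smad7 lies to the left at -0.91, and the interval of Tgfb2 spans 0.

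Other genes of the pathway were described through 6 lists, beside the share of all genes called. For every list below, that share was 13.2% higher and 10.7% lower at day 5, and 8.38% higher and 4.99% lower at day 10. Of 11 genes tested for latent complex binding and matrix storage, 5 rose and 3 fell at day 5, and 5 rose and 4 fell at day 10, with median log2 changes of 0.15 and 0.33. Fibromodulin (Fmod), a small proteoglycan that binds TGF-beta and collagen, fell from 997 ± 218 to 121 ± 47.0 CPM at day 5 (8.25-fold, log2 change -3.04 ± 0.34, adjusted p = 0.000118, edgeR) and to 357 ± 142 at day 10 (2.80-fold, adjusted p = 0.0101). Ltbp4, a relative that binds latent Tgfb1, fell 2.88-fold at day 5 (115.6 ± 29.5 against 333 ± 63.8 CPM, adjusted p = 0.000284) and 1.99-fold at day 10 (adjusted p = 0.00664). Emilin1, a fibre glycoprotein that restrains TGF-beta processing, rose 2.60-fold at day 5 (410 ± 87.7 against 158 ± 26.6, adjusted p = 0.000737) and 2.16-fold at day 10 (adjusted p = 0.00504). Asporin (Aspn), a decorin relative, fell 4.68-fold at day 10 (4.86 ± 1.93 against 22.7 ± 4.63, adjusted p = 0.00396) and did not pass at day 5 (adjusted p = 0.0646). Biglycan (Bgn) rose 2.55-fold at day 5 (adjusted p = 0.00127) and 2.19-fold at day 10 (1931 ± 646 against 880 ± 103, adjusted p = 0.00657). The genes that rose at day 10 were 3 without sorted control replicate 4 or without day 10 replicate 3. Lrrc32, which holds latent TGF-beta at the cell surface, read 151 ± 26.9 at day 5 and 152 ± 31.3 CPM in control (adjusted p = 0.967).

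Of 14 genes tested for latent complex activation, 5 rose and 1 fell at day 5, and 4 rose and 2 fell at day 10 (median log2 changes 0.37 and 0.32). The integrin subunit Itgb8, which pairs with the alpha v chain to free Tgfb1 and Tgfb3, rose from 35.2 ± 3.14 CPM to 140 ± 10.4 at day 5 (3.99-fold, log2 change 2.00 ± 0.15, adjusted p = 1.59e-05, edgeR) and 135 ± 16.8 at day 10 (3.83-fold, adjusted p = 3.64e-05). Its partner Itgav was at 197 ± 13.2 and 222 ± 15 CPM in control and at day 5 (adjusted p = 0.399). The protease Mmp9 rose 9.30-fold at day 5 (35.4 ± 9.49 against 3.77 ± 1.88, adjusted p = 0.000737), and Bmp1, which cleaves procollagens and Ltbp1, rose 4.92-fold (409 ± 69.9 against 83.1 ± 20.9, adjusted p = 0.000174) and at day 10 3.12-fold (adjusted p = 0.00273). At day 10 Mmp9 was at 9.52 ± 5.94 CPM and did not pass (adjusted p = 0.094). Mmp14 rose 2.16-fold at day 5 (adjusted p = 0.000614) and 2.28-fold at day 10 (707 ± 137 against 310 ± 14.5, adjusted p = 0.00106). Leukocyte markers rose in the same libraries, as did the astrocyte markers Gfap (8.23-fold), Aqp4 (11.8-fold) and Gja1 (2.04-fold) at day 5. Of the other astrocyte markers listed, Aldh1l1 fell 5.44-fold, and Slc1a2 and Slc1a3 did not pass. The part of leukocyte or astrocyte transcripts in the Mmp9 and Itgb8 changes was not tested. The count of genes lower at day 5 was 2 without control replicate 1 or 3. At day 10 it was 1 without control replicate 1 or 3 or day 10 replicate 1 or 2, and 0 without control replicate 4 or day 10 replicate 3.

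Of 12 further receptors and co-receptors tested, 3 rose and 2 fell at day 5, and 2 rose and 1 fell at day 10 (medians 0.14 and 0.05). Neuropilin 1 (Nrp1), a co-receptor for semaphorins, VEGF and TGF-beta, rose 1.76-fold at day 5 (453 ± 27.6 against 257 ± 36.1 CPM, adjusted p = 0.00163, edgeR) and 1.98-fold at day 10 (adjusted p = 0.00137). Neuropilin 2 (Nrp2) fell 1.98-fold at day 5 (102 ± 15.2 against 201 ± 1.5, adjusted p = 0.00253) and 1.78-fold at day 10 (adjusted p = 0.0116, 0.055 with replicate numbers as a block). Acvrl1, the type I receptor ALK1 of endothelial cells, rose 1.81-fold at day 5 (38.8 ± 3.14 against 21.4 ± 1.94, adjusted p = 0.00609) and 1.88-fold at day 10 (adjusted p = 0.0079). Of 8 endothelial markers, Cdh5, Emcn and Vwf rose at day 5 and the other 5, Pecam1, Cldn5, Flt1, Tek and Kdr, did not pass. The most abundant, Cdh5, rose 2.11-fold (219 ± 15.4 to 462 ± 39.2 CPM), but against whole cord it was 9.18-fold higher in healthy sorted cells where 6 of the 8 were lower. The part of endothelial transcripts in the Acvrl1 change was not tested. The count of genes lower at day 5 was 1 without control replicate 4 or day 5 replicate 3.

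Of 17 SMADs and SMAD regulators tested, 6 rose and 2 fell at day 5, and 3 rose and 2 fell at day 10 (medians 0.26 and 0.20). Pmepa1, a TGF-beta induced gene whose protein sequesters SMAD2 and SMAD3, rose from 108 ± 23.7 CPM to 431 ± 35.8 at day 5 (4.00-fold, log2 change 2.00 ± 0.26, adjusted p = 0.000237, edgeR) and 443 ± 167 at day 10 (4.10-fold, adjusted p = 0.000622). Nedd4l, a ubiquitin ligase for activated SMAD2 and SMAD3, fell 3.25-fold at day 5 (23.8 ± 2.82 against 77.3 ± 8.56, adjusted p = 0.000486) and 2.09-fold at day 10 (adjusted p = 0.012). Smad1, which serves BMP signals, rose 2.25-fold at day 5 (51.6 ± 6.60 against 22.9 ± 6.30, adjusted p = 0.00276) and 1.91-fold at day 10 (adjusted p = 0.0166). Leaving out control replicate 1 (0.0525), control replicate 4 (0.0532), day 10 replicate 1 (0.0571) or day 10 replicate 3 (0.0697) ended its day 10 call. The partner SMADs did not pass: Smad2 was at 35.1 ± 2.61 CPM at day 5 and 34.3 ± 6.59 in control (adjusted p = 0.911), and Smad4 at 97.3 ± 4.20 and 80.2 ± 6.51 (adjusted p = 0.163). The genes higher at day 5 were 3 without control replicate 3 or day 5 replicate 1 or 3, and those lower at day 10 were 1 without control replicate 3 or 4 or any 1 of the day 10 libraries.

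Of 10 activins, growth differentiation factors and follistatins tested, 3 rose and 1 fell at day 5, and 2 rose and 1 fell at day 10 (medians 0.30 and 0.42). Fstl1, a secreted glycoprotein of mesenchymal cells, rose 3.06-fold at day 5 (1976 ± 313 against 645 ± 82.7 CPM, adjusted p = 0.000486, edgeR) and 2.28-fold at day 10 (adjusted p = 0.00549). The activin beta B chain Inhbb was at 14.1 ± 3.24 CPM at day 5 against 1.5 ± 1.99 (log2 change 3.28 ± 0.76, adjusted p = 0.0081), 5.27 without control replicate 1 and 4.25 with limma voom. The activin beta A chain Inhba rose from 7.53 ± 3.9 to 39.4 ± 12.6 CPM at day 5 (adjusted p = 0.0174), a call that ended when control replicate 1 (0.0592), control replicate 4 (0.076) or day 5 replicate 3 (0.0616) was left out. Neither chain passed at day 10, with Inhbb at 5.12 ± 3.13 CPM (adjusted p = 0.137) and Inhba at 27.2 ± 27.8 CPM (adjusted p = 0.0753). At day 10 the activin antagonist follistatin (Fst) was at 11.3 ± 10.2 against 2.34 ± 1.73 CPM (log2 change 2.25, adjusted p = 0.0368). That call was lost without day 10 replicate 3 (1.22, 0.26), without control replicate 1 (0.104) or 4 (0.114), with limma voom (0.11) and with only the 2 groups in the fit (0.077), and the change was 2.98 without control replicate 3. Gdf11 was 1.88-fold lower at day 5 (adjusted p = 0.00285) and 1.51-fold lower at day 10 (44.0 ± 9.06 against 66.7 ± 0.413, adjusted p = 0.0378). Its day 10 call was lost with only the 2 groups in the fit (0.0518), with replicate numbers as a block (0.0934), and without control replicate 1 (0.0805), 3 (0.0736) or 4 (0.0864) or day 10 replicate 1 (0.0513) or 3 (0.128). In this list the genes higher at day 10 were 1 without control replicate 4 or day 10 replicate 3, and the genes lower at day 5 were 2 without control replicate 3.

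Genes known to respond to TGF-beta in fibroblasts moved in both directions. Their list was not split by the direction in which TGF-beta moves a gene, and it holds Id1, Id2 and Id3 beside matrix genes. Of 29 tested, 12 rose and 7 fell at day 5, and 13 rose and 4 fell at day 10 (medians 0.35 and 0.31). Among those that rose at both times were the matrix genes Tnc, Cthrc1, Postn, Fn1, Lox, Col1a1, Col1a2 and Col3a1, the protease Adam12, the inhibitor Timp1, and Id2. Fewer response genes rose at day 10 without day 10 replicate 3, as given below. Of the genes just named, only Postn and Timp1 were followed singly at day 10 without that library, and both stayed called. The day 10 level of Tnc was 817 ± 761 CPM against 183 ± 90.1 in control. Timp1, an inhibitor of matrix metalloproteinases, went from 3.30 ± 1.97 CPM to 135 ± 38.3 at day 5 (40.5-fold, adjusted p = 0.000636, edgeR). Its day 10 level was 138 ± 141 (log2 change 5.38, adjusted p = 0.00154), 4.15 without day 10 replicate 3 and not called with limma voom (0.0631). Cthrc1 rose 10.6-fold (70.2 ± 25 against 6.60 ± 2.94, adjusted p = 0.000129) and Adam12 6.99-fold (208 ± 39.1 against 29.7 ± 11, adjusted p = 8.38e-05) at day 5. Periostin (Postn) rose 7.19-fold at day 10 (283 ± 128 against 39.3 ± 9.75, adjusted p = 0.000345). Il11 was at 22.1 ± 26.3 CPM at day 10 against 1.07 ± 0.66 (log2 change 4.35, adjusted p = 0.0146). Its call was lost with limma voom (3.32, 0.306), with replicate numbers as a block (0.0898), and without control replicate 3 (0.0513) or 4 (0.0515) or day 10 replicate 3 (2.75, 0.0827).

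The response genes that fell at both times were Tgfbi, Acta2, Tagln and Itga11. Tgfbi, whose name records its induction by TGF-beta, fell from 2136 ± 95.4 CPM to 667 ± 96.3 at day 5 (3.20-fold, adjusted p = 0.000681, edgeR) and 967 ± 444 at day 10 (2.21-fold, adjusted p = 0.0109). The smooth muscle actin Acta2 was 2.18-fold lower at day 5 (370 ± 120 against 806 ± 384, adjusted p = 0.0417) and 3.53-fold lower at day 10 (228 ± 102, adjusted p = 0.00767). Myh11, a myosin of smooth muscle, was at 1612 ± 603 CPM in control, 414 ± 254 at day 5 and 395 ± 261 at day 10. Other mural markers went the other way at day 5, where Abcc9 rose by 1.01 and Des by 0.80 on the log2 scale. The part of mural transcripts in the Acta2 and Tagln changes was not tested. Tgfbi and Acta2 were chosen for mention after their values were seen. So were Ptprc, Gfap, Aqp4, Gja1, Aldh1l1, Slc1a2, Slc1a3, Abcc9, Des, Lrrc32, Itgav, Smad2 and Smad4 above and Itgb8 and Mmp9 against whole cord below. The genes lower at day 5 were 4 without control replicate 4 or day 5 replicate 3, and the genes higher at day 10 were 8 without day 10 replicate 3. Fibronectin (Fn1) was the 1 list gene called between the times, lower at day 10 (1419 ± 340 against 3180 ± 171 CPM, adjusted p = 0.0361). That call was lost under 8 of its 14 alternatives, with adjusted p up to 0.212 without day 10 replicate 1.

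**Figure D5:**
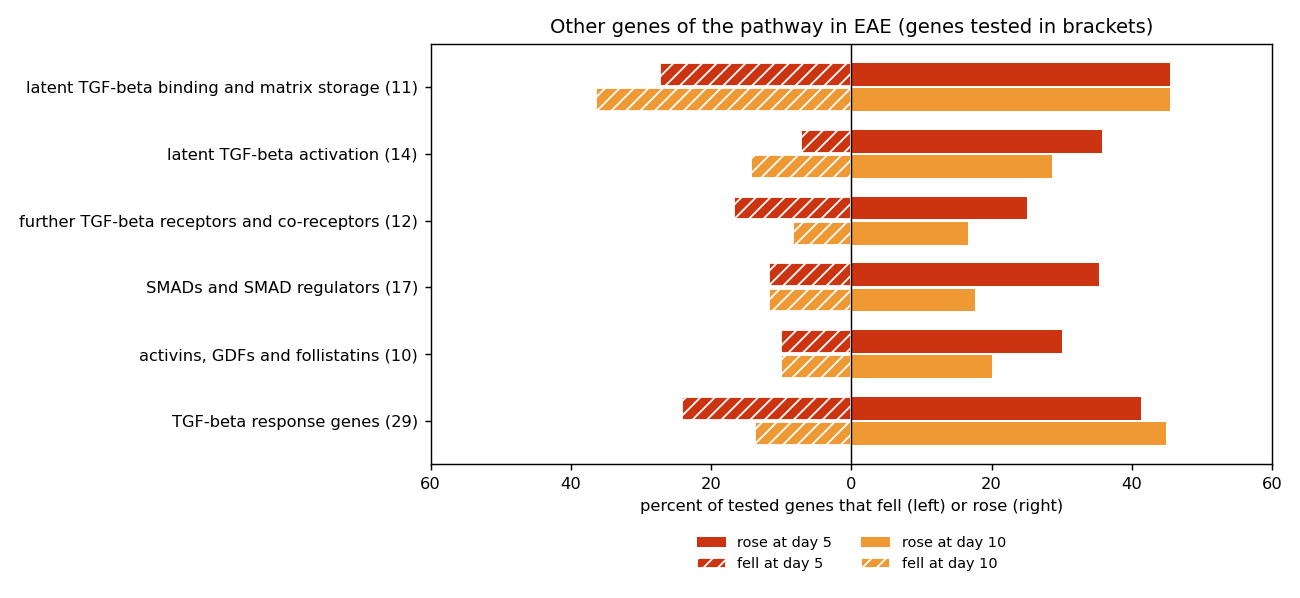
Share of the tested genes of each of 6 pathway lists that rose (right, plain) or fell (left, hatched) against sorted control at day 5 (red) and day 10 (orange), in percent, with the number tested in brackets. Response genes rose in 12 and 13 of 29 cases, and each list holds genes of both directions, beside 13.2% and 10.7% of all genes at day 5 and 8.38% and 4.99% at day 10.

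Against whole cord the lists leaned to the sorted cells, where 26.9% of all genes tested were higher and 28.7% lower. All 11 storage genes tested were higher, with a median log2 difference of 5.03, led by decorin (Dcn, a collagen-binding proteoglycan; 6184 ± 506 against 22.7 ± 18.7 CPM), Emilin1 and Fbn1, with log2 differences of 8.07, 6.12 and 5.84. Without whole cord replicate 3 these were 9.32, 7.02 and 6.65, and for decorin 7.40 without whole cord replicate 1. Of the 14 activation genes 10 were higher and 2 lower, Itgb8 (33.0 ± 2.67 against 186 ± 10.3 CPM) and Mmp9, and the lower count was 1 without control replicate 1 or either whole cord library or with library totals only. The activators Mmp2, Thbs1 and Plau led that list, with log2 differences of 6.14, 5.84 and 3.43. Of 13 receptors 7 were higher, led by the decoy receptor Bambi (3.13) and the adaptor Dab2 (2.75), and 2 were lower. One of these, Acvr1c, was near 0 in the sorted controls (0.032 ± 0.0555 CPM against 12.9 ± 1.06).

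Of 17 SMADs and regulators 9 were higher and 4 lower in the sorted cells (median 0.63), beside 26.9% and 28.7% of all genes. The higher count was 5 without whole cord replicate 1 or 3. Smad9, which serves BMP signals, was 14.9-fold lower (3.65 ± 2.11 against 53.4 ± 0.399 CPM, adjusted p = 0.000203, edgeR), and the SMAD corepressors Tgif2 and Tgif1 were 11.7-fold and 8.55-fold higher. Of 10 activins and relatives 6 were higher and 1, Inhbb, lower (log2 difference -3.24, adjusted p = 0.0194). The Inhbb call was lost without whole cord replicate 1 (0.0858) or 3 (0.0605), and its difference was -5.23 without control replicate 1 and -4.22 with limma voom. Fstl1 was 6.64-fold higher (605 ± 73.0 against 91.1 ± 18.6) and Gdf10 3.31-fold (adjusted p = 0.00401, and 0.0523 without whole cord replicate 3). Of 29 response genes 25 were higher and 1 lower (median 5.02), led by Junb and Col3a1, with log2 differences of 7.18 and 7.15. Col3a1 was at 8.12 without whole cord replicate 3 and 6.55 without replicate 1. This list holds Col1a1, the gene of the sort reporter, so the higher level of that gene was set by the sort. The counts against whole cord are no measure of a response to TGF-beta. Junb is also an immediate-early gene, and that list was higher in the sorted cells in 10 of 10 genes.

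The genes whose pattern over the 9 sorted libraries was most like that of each member were found by Pearson's correlation of log2 CPM among 9414 genes with a mean of at least 10 CPM. For Tgfb1 they were Taf2 (0.98) and Smap1 (0.979), for Tgfb2 Smg6 (0.901) and Ptpn9 (0.896), and for Tgfb3 Echdc2 (0.95) and Ddx55 (0.947). Tgfbr1 was near Fam20a (0.982). For Tgfbr2 they were Gm9531 (0.99) and snoU90 (0.985), and for Tgfbr3 Sept6 (0.989) and Nalcn (0.988). Smad3 was nearest to Jmjd8 (0.984) and Sox9 (0.972), and Smad7 to Irgq (0.972) and Elf2 (0.949). Ltbp1 was nearest to Chic1 (0.91) and Hoxa10 (0.909), and Ltbp2 to Kpnb1 (0.985) and Pkm2 (0.982). These values are a description: the libraries share the split between health and EAE, and the 2 best of all genes searched are high by choice. The best likeness was lowest for Tgfb2 and Ltbp1.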

How the data were processed

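The deposited table holds, per gene and library, a read count and a CPM value. Per the submitters' processing notes the authors aligned reads to mm9 with TopHat2 2.0.11 and Bowtie2 2.2.1, handled alignments with SAMtools 0.1.19, counted with HTSeq 0.6.1 and used DESeq2. For annotation and strand setting, the sources used here state nothing. The deposited CPM equals the count over the library total within 1.46e-11 CPM in 11 libraries, and the 1 total line was left out. Gene symbols that a spreadsheet had turned into dates (24) were restored.

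The counts were tested with edgeR 4.0.16 in R 4.3.3 (quasi-likelihood F test, TMM scaling, filterByExpr by group, Benjamini-Hochberg adjustment over all genes tested, threshold 0.05). The 9 sorted libraries shared a fit, and sorted control and whole cord (5 libraries) had their own. SE is the log2 change over the square root of F. The fits were tested on simulated data, in which 200 genes with 10 CPM or more were changed. For day 5 against control, 61% of 2-fold and 96% of 4-fold changes were recovered, and 10 of 167 calls were false. For control against whole cord these were 41% and 97%, and 13 of 151 calls were false. Far more genes were called in the data (3817 at day 5 and 9208 against whole cord), so the adjustment of p was stricter in the simulation. The shares recovered are therefore not those of the tests above. Many simulated 2-fold changes missed the threshold, and a gene that did not pass is not thereby shown to be unchanged. Alternatives were DESeq2 1.42.0, limma 3.58.1 (voom), RLE scaling, library totals only, no low-count filter, all 11 libraries in a fit, only the groups compared, replicate numbers as a block, and each library left out in turn. Replicate pairs differed by 9.27 to 53.1 times counting noise (chi-square over its degrees of freedom), so none was merged.

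Levels per kilobase use the union of exons in GENCODE M21 (GRCm38). The named genes are all 10 members, at most 3 called genes of each list and comparison with the largest change (10 CPM or more in the higher group), and the 2 nearest genes of each member, except that some genes this rule names are not reported here. The members and the lists were chosen with earlier results of these data known. Counting intervals cover counting error only.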

Additional observations from a re-analysis of the deposited data

How the results depend on the processing

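The 9 member calls between sorted cells and whole cord, and the day 5 calls of Tgfb1, Tgfbr2, Tgfbr3 and Ltbp2, held under all alternatives run. The members called at day 10 were 4, and 2 with limma voom, 2 with only the groups compared, and 1 to 4 with a library left out. Between the times they were 0, and 0 to 2 with a library left out. All genes called ranged over the left-out libraries from 2446 to 3588 at day 5 (3817 with all), from 1045 to 2031 at day 10 (2136), from 1 to 218 between the times (21) and from 5973 to 10054 against whole cord (9208). Between the times DESeq2 called 182 genes, limma voom 33, no low-count filter 265 and only the groups compared 3. The cause was not tested.

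Members near 0 turned direction without passing the test. At day 10 Tgfb2 was -0.02 with library totals, -0.01 with limma voom and -0.22 to 0.24 with a library left out, and Ltbp1 was -0.17 to 0.04. Between the times Tgfb3 was 0.00 with all 11 libraries, with no low-count filter and with replicate numbers as a block, 0.01 with only the groups compared and -0.13 to 0.16 with a library left out. Tgfbr2 was -0.02 with library totals and -0.06 to 0.12, and Ltbp1 -0.06 to 0.17. Against whole cord Tgfb2 was 0.11 with library totals.

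With replicate numbers as a block, 4 members were called at day 5 (Tgfbr1 and Smad3 lost), 3 at day 10 (Ltbp2 lost), 0 between the times and 9 against whole cord. Deviations of same-numbered libraries correlated at -0.102, -0.048 and 0.084 between day 5 and day 10, at 0.143 and -0.017 between control and day 5, at -0.046 and 0.147 between control and day 10, and at -0.021 and -0.032 between control and whole cord. No comparison had all its pairs above 0.1, so the numbers were not taken to pair the samples. List counts at day 10 moved by over 1.5 times also with limma voom, no filter, only the groups compared and the block.

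Limits: 3 libraries a group, 2 of whole cord, pooled cords, sorted cells of more than 1 type and no protein or SMAD phosphorylation measured.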
